A study of Rattus norvegicus with 12 samples.

Results

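Calb1 and Calb2, the genes for the calcium-binding proteins calbindin and calretinin, were followed across the deep and superficial sublayers of the hippocampal CA1 pyramidal cell layer in control and chronically epileptic rats. Both were chosen by identifier, Calb1 as ENSRNOG00000007456 and Calb2 as ENSRNOG00000016977, and are 2 of the 32662 Ensembl gene identifiers listed for each library. Adult male Wistar rats, labelled 45 to 50 days old, received hourly intraperitoneal kainate at 5 mg/kg until status epilepticus, and diazepam at 4 mg/kg 1 h later to stop convulsions. They were sampled 6 to 8 weeks after status, in the chronic phase, whereas controls received vehicle (saline or DMSO) and otherwise similar care. Deep and superficial cell bodies were laser-microdissected separately from 20 µm frozen sections of the same brains, which gave 4 groups of 3 libraries from 3 control and 3 epileptic animals. Seizures were observed in handling or recorded in only a subset of animals per the labels' protocols, so that epileptic below means the labelled condition.

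Calbindin and calretinin are closely related EF-hand proteins, built from helix-loop-helix units whose loops bind calcium, and both buffer fast calcium signals in neurons. In the hippocampus calbindin is made by dentate granule cells, by a part of the CA1 pyramidal cells and by some interneurons. In CA1 it is widely used to tell superficial pyramidal cells, on the side of the stratum radiatum, from deep ones on the side of the stratum oriens. Calretinin in the CA1 region is mainly known from GABAergic interneurons, many of which contact other interneurons.

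The libraries held 16135358 to 25893962 gene counts, 16135358 to 19550582 in controls and 20623196 to 25893962 in epileptic rats. Levels are given as CPM, the counts scaled to library size with TMM factors. Epileptic animals 2 and 3 stood apart: alignments outside annotated exons made up 22.3 to 26.7% of all alignments in their libraries, against 37.7 to 43.0% in epileptic animal 1 and 35.8 to 44.0% in controls. The most abundant identifier, ENSRNOG00000043866, took 8.24 to 19.05% of gene counts in superficial and 11.2 to 22.8% in deep libraries, with the lower share in the superficial library of 6 of 6 animals. Its share was 8.24 to 13.0% in controls, 11.0 to 16.6% in epileptic animal 1 and 18.7 to 22.8% in epileptic animals 2 and 3. The epilepsy comparisons were also fitted with the outside-exon share as a covariate and without the identifiers over 1% of gene counts. Beyond these fits, the part of the library differences in the epilepsy comparisons of Calb1 and Calb2 was not tested. Only the identifiers of Calb1 and Calb2 are paired with a gene name here, so markers of pyramidal cells, interneurons, granule cells or glia could not be set beside them. A different number of Calb1 or Calb2 cells in the collected tissue and a different amount of their RNA per cell cannot be told apart.

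Calb1 was higher in superficial than in deep CA1 in every animal, by 2.09-fold in control and 1.71-fold in epileptic rats. In deep control libraries it had 35.6, 27.0 and 20.5 CPM in animals 1, 2 and 3, from 673, 516 and 345 reads. In superficial control libraries it had 75.1, 49.6 and 48.4 CPM, from 1570, 928 and 902 reads. The control sublayers did not overlap, as was so for 21.7% of all identifiers tested, in either direction. Control animal 1 was the highest in both sublayers.

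In epileptic rats the Calb1 order was the same within each animal, but the animals lay further apart. Deep epileptic libraries had 23.6, 42.9 and 18.1 CPM in animals 1, 2 and 3, from 494, 891 and 336 reads. Superficial epileptic libraries had 38.0, 68.5 and 36.4 CPM, from 817, 1680 and 771 reads. The deep library of epileptic animal 2 lay above the superficial libraries of epileptic animals 1 and 3, so that the epileptic sublayers overlapped across animals while no animal reversed the order.

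**Figure D1:**
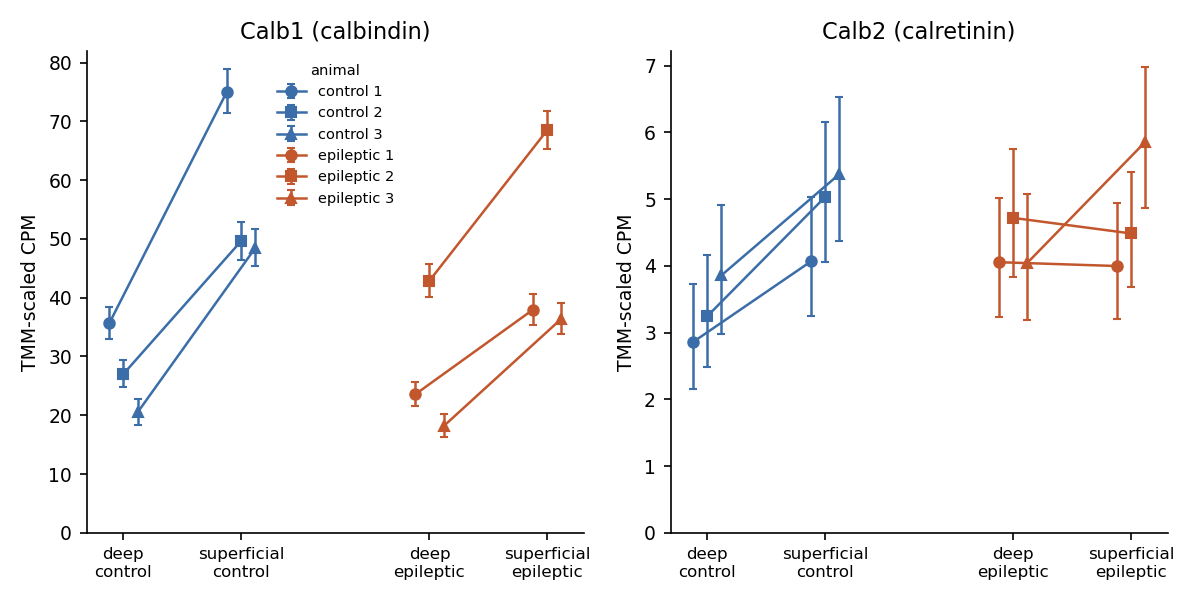
TMM-scaled CPM of Calb1 and Calb2 in each library, with the deep and superficial library of an animal joined by a line and bars giving the exact 95% Poisson interval of each count (counting error only). Every Calb1 line goes up from deep to superficial, while the Calb2 lines of epileptic animals 1 and 2 are nearly flat, at 4.05 and 4.00 CPM and at 4.72 and 4.48 CPM.

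The Calb1 difference between sublayers passed the test in both conditions. In control rats the log2 fold change was 1.06 (SE 0.08, 95% interval 0.89 to 1.23, adjusted p = 2.012e-06, edgeR's quasi-likelihood test blocked by animal). In epileptic rats it was 0.78 (SE 0.08, 95% interval 0.61 to 0.95, adjusted p = 3.389e-05, same model). Over all 14791 identifiers tested, 8.44% were called in control and 10.03% in epileptic rats. Calb1 had the seventh smallest p in controls, and its fold change ranked 17 among the 630 identifiers called higher in superficial cells. In epileptic rats its p ranked 29, and its fold change ranked 130 among the 745 called higher. Called identifiers had a median absolute log2 fold change of 0.37 in controls and 0.34 in epileptic rats. Both Calb1 calls depended on comparing sublayers within animals: without the animal as a block the fold changes were nearly the same, at 1.06 and 0.76, but the adjusted p was 0.4801 and 0.6931. With the 3 identifiers that hold over 1% of gene counts left out, among them ENSRNOG00000043866, the fold changes were 1.06 and 0.78.

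Taken animal by animal, the superficial Calb1 level was 2.11, 1.84 and 2.37 times the deep level in control animals 1, 2 and 3. In epileptic animals 1, 2 and 3 it was 1.61, 1.60 and 2.01 times the deep level. The smallest ratios were those of epileptic animals 1 and 2, and epileptic animal 3 lay within the control range. The mean within-animal difference was 0.93 ± 0.22 on the log2 scale (SD, n = 6; higher in 6 of 6 animals, two-sided exact sign-flip permutation test, p = 0.03125, adjusted p = 0.09375 over 6 exact tests). That p is the smallest 6 animals can give, and no exact test here could fall below 0.05 after adjustment over the 6. Of all identifiers tested, 11.0% were also higher in superficial CA1 in all 6 animals. Counting error alone was 0.06 to 0.09 on this scale in each animal, well below the differences.

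Calb2 was a low-count gene, with 54 to 124 reads in a library. In deep control libraries it had 2.86, 3.24 and 3.86 CPM in animals 1, 2 and 3, from 54, 62 and 65 reads. In superficial control libraries it had 4.07, 5.03 and 5.37 CPM, from 85, 94 and 100 reads. The control groups did not overlap, which also held for Calb1 and, in either direction, for 21.7% of all identifiers tested. Each control animal had more Calb2 in its superficial library.

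Deep epileptic libraries had 4.05, 4.72 and 4.05 CPM of Calb2 in animals 1, 2 and 3, from 85, 98 and 75 reads. Superficial epileptic libraries had 4.00, 4.48 and 5.86 CPM, from 86, 110 and 124 reads. Only epileptic animal 3 had a clearly higher superficial level, and the groups overlapped. For neither gene did the epileptic sublayers separate across animals, against 9.52% of all identifiers that did, in either direction.

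The Calb2 sublayer difference did not pass the test in either condition. In control rats superficial CA1 had 1.45 times the deep level (log2 fold change 0.54, SE 0.16, 95% interval 0.19 to 0.89, unadjusted p = 0.004885, adjusted p = 0.0551, edgeR's quasi-likelihood test blocked by animal). It lay just outside the threshold of 0.05, and the adjusted p was 0.01483 when the 6 control libraries were fitted alone, 0.01278 with no low-count filter, and 0.03477 and 0.01508 without epileptic animal 1 or 3. Over all alternatives it ranged from 0.01278 to 0.5146. In epileptic rats the superficial level was 1.11 times the deep level (log2 fold change 0.15, SE 0.15, 95% interval −0.18 to 0.47, adjusted p = 0.5929, same model). Without epileptic animal 3 that value was −0.05, so that the epileptic estimate rests on 1 animal. A superficial excess of more than 1.39-fold in epileptic rats lay outside the interval.

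Within animals the superficial Calb2 level was 1.42, 1.55 and 1.39 times the deep level in control animals 1, 2 and 3. In epileptic animals 1, 2 and 3 it was 0.986, 0.951 and 1.45 times the deep level. The mean difference was 0.33 ± 0.30 on the log2 scale (SD, n = 6; higher in 4 of 6 animals, two-sided exact sign-flip permutation test, p = 0.125, adjusted p = 0.25). The direction in epileptic animals 1 and 2 depended on the scaling: on raw library totals the ratios were 1.03 and 1.01, 6 of 6 animals were higher, and the same exact permutation test gave p = 0.03125 (adjusted p = 0.0625). Counting error was 0.20 to 0.25 on the log2 scale in each animal, which is larger than the difference in epileptic animals 1 and 2.

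Whether the sublayer difference itself differed between conditions was then tested. For Calb1 the epileptic minus control difference of log2 fold changes was −0.28 (SE 0.11, 95% interval −0.53 to −0.04, unadjusted p = 0.02479, adjusted p = 0.7226, edgeR's quasi-likelihood test). For Calb2 it was −0.39 (SE 0.22, 95% interval −0.87 to 0.09, unadjusted p = 0.1005, adjusted p = 0.8301). Neither passed, so the smaller epileptic fold changes of both genes are not shown to differ from those of controls. edgeR called 0 of 14791 identifiers (0%) in this comparison, and DESeq2 called 2 and limma-voom with random animal effects 0. In edgeR 976 (6.6%) had an unadjusted p below 0.05, near the 0.05 share that the threshold alone would give, and that of Calb1 ranked 507. The Calb1 estimate stayed negative without any 1 animal, at −0.38 to −0.20, and the Calb2 estimate at −0.59 to −0.27. The Calb1 interval, at 0.695 to 0.972 times the control sublayer ratio, is for a single gene and is not adjusted over all identifiers. Whether it excludes equality also depends on the fit. The unadjusted p was 0.07025 with DESeq2, 0.264 with limma-voom and 0.001851 to 0.136 with edgeR without 1 animal. The adjusted p was at least 0.3377 in every alternative.

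**Figure D2:**
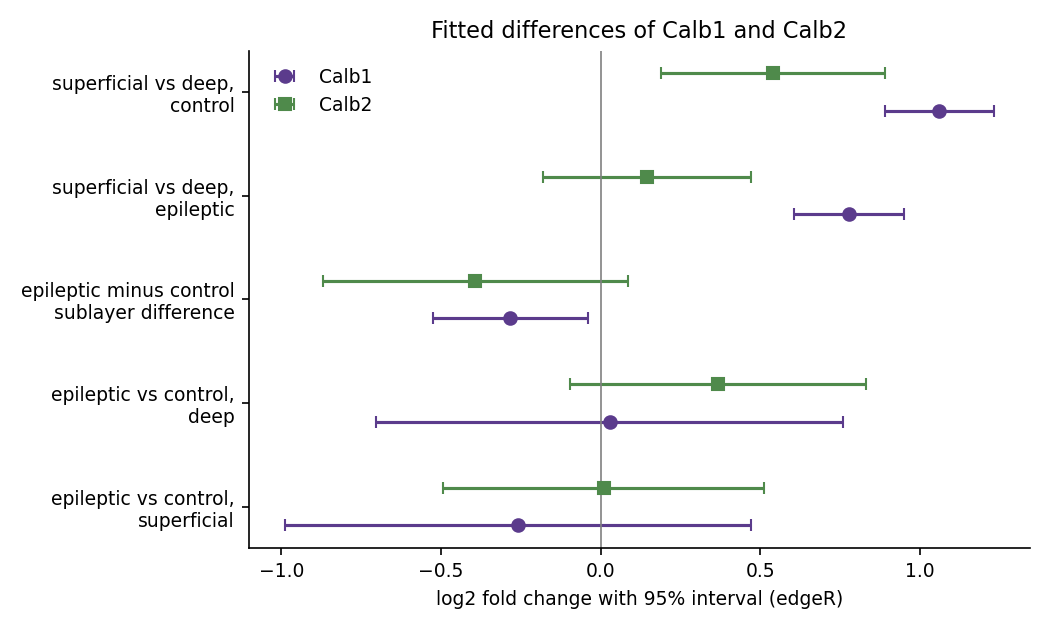
Fitted log2 fold changes of Calb1 and Calb2 (points) with 95% intervals (bars) from edgeR's quasi-likelihood model, for the sublayer difference in each condition, its change between conditions, and epilepsy in each sublayer. The Calb1 sublayer intervals lie wholly above 0.6, while each interval for epilepsy within a sublayer includes 0; the intervals are for single genes and are not adjusted over all identifiers.

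Placed among all identifiers, the control fold change of Calb1 between sublayers exceeded that of 99.7% of those tested, and its epileptic fold change that of 98.3%. Those of Calb2 exceeded 97.7% in control and 75.6% in epileptic rats. The median log2 fold change over all identifiers was 0.01 in controls and 0.02 in epileptic rats. Of the identifiers tested, 691 were called in both conditions in either direction, Calb1 among them and Calb2 not.

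**Figure D3:**
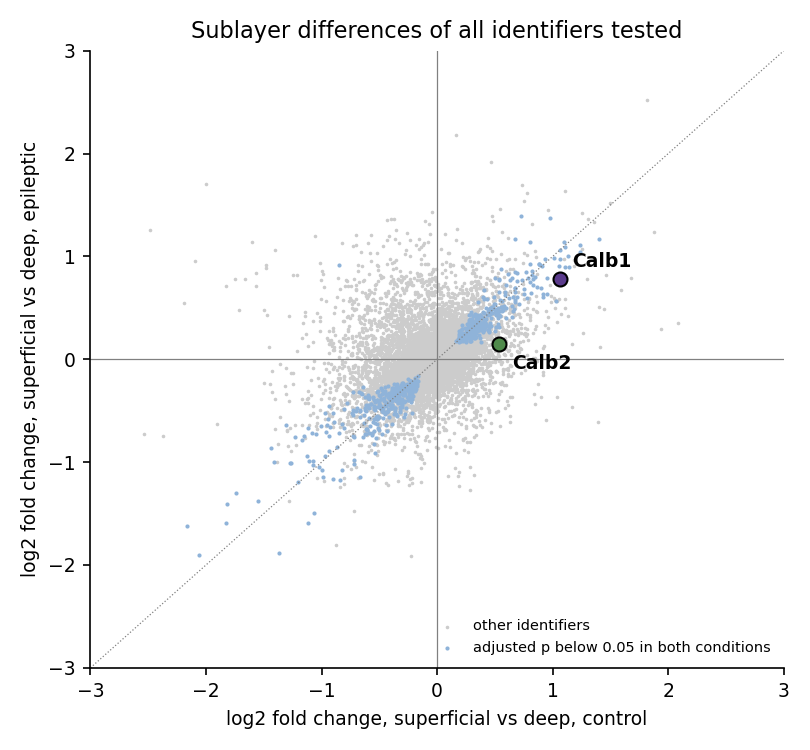
Log2 fold change of superficial against deep CA1 in control rats (horizontal) and epileptic rats (vertical) for each of 14791 identifiers tested, with 5 lying outside the plotted range. Calb1 lies at 1.06 and 0.78 among identifiers called in both conditions (blue), and Calb2 at 0.54 and 0.15 lies closer to the horizontal axis; the dotted line marks equal fold changes.

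Between epileptic and control rats neither gene passed the test in either sublayer. Mean Calb1 in deep CA1 was 27.7 ± 7.61 CPM in controls, against 28.2 ± 13.0 CPM in epileptic animals (SD, n = 3 each). The log2 fold change was 0.03 (SE 0.32, 95% interval −0.70 to 0.76, adjusted p = 0.9797, edgeR's quasi-likelihood test). This near-zero value averages unlike animals, since epileptic animal 2 had the highest and epileptic animal 3 the lowest deep level of all 6, and without epileptic animal 2 it was −0.41 (adjusted p = 0.6544) and without epileptic animal 3 0.26. In superficial CA1 mean Calb1 was 57.7 ± 15.0 CPM in controls, against 47.6 ± 18.1 CPM in epileptic animals (SD, n = 3 each; log2 fold change −0.26, SE 0.30, 95% interval −0.99 to 0.47, adjusted p = 0.6676, edgeR). Epileptic animals 1 and 3 lay below all controls in superficial CA1 and epileptic animal 2 lay within the control range. The superficial value was −0.62 without epileptic animal 2 (unadjusted p = 0.02613, adjusted p = 0.3421, edgeR), −0.11 without epileptic animal 1 or 3 and −0.022 without control animal 1. The intervals over all 6 animals run from 0.614-fold to 1.69-fold in deep and from 0.504-fold to 1.38-fold in superficial CA1.

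Mean Calb2 in deep CA1 was 3.32 ± 0.503 CPM in controls, against 4.27 ± 0.386 CPM in epileptic animals (SD, n = 3 each). All 3 epileptic deep libraries lay above all 3 control ones. Of all identifiers, 18.5% did not overlap in this comparison, in either direction. On raw library totals the Calb2 groups overlapped, because control animal 3 had 4.03 and epileptic animal 3 had 3.62 CPM unscaled by TMM. The log2 fold change was 0.37 (SE 0.20, 95% interval −0.10 to 0.83, adjusted p = 0.4577, edgeR's quasi-likelihood test). In superficial CA1 mean Calb2 was 4.82 ± 0.677 CPM in controls, against 4.78 ± 0.963 CPM in epileptic animals (SD, n = 3 each; log2 fold change 0.01, SE 0.22, 95% interval −0.49 to 0.51, adjusted p = 0.9857, edgeR). Of all identifiers, edgeR called 0 of 14261 (0%) in deep CA1, with 1947 (13.7%) at an unadjusted p below 0.05. DESeq2 called 376, limma-voom with random animal effects 47, and an edgeR fit blocked on replicate number 239. In superficial CA1 edgeR called 2 of 14321 (0.0140%), with 2710 (18.9%) at an unadjusted p below 0.05. Neither gene was called by any of these fits.

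Averaged over both sublayers of an animal, Calb1 was 5.12 ± 0.57 log2 CPM in epileptic and 5.29 ± 0.37 in control rats (SD, n = 3 each; difference −0.17, exact permutation test, two-sided, p = 0.6, adjusted p = 0.6). Calb2 was 2.20 ± 0.14 log2 CPM in epileptic and 2.03 ± 0.20 in control rats (SD, n = 3 each; difference 0.17, exact permutation test, two-sided, p = 0.3, adjusted p = 0.45), and this difference was 0.033 on raw library totals and 0.062 without control animal 1. With 3 animals against 3 the smallest possible p is 0.1.

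The 4 group means of Calb1 ran from superficial control through superficial epileptic and deep epileptic to deep control. The top pair, superficial control and epileptic, overlapped, as did the bottom pair, the 2 deep groups. Superficial and deep epileptic libraries, the middle neighbours, also overlapped across animals and separated only within them. For Calb2 the order of means was the same, and each pair of neighbours overlapped except deep epileptic and deep control, which separated with TMM scaling only.

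The spread of Calb1 between animals was far above counting error, and that of Calb2 was nearer to it. The SD of Calb1 was 26.1 to 27.5% of the mean in control groups and 38.0 to 46.2% in epileptic groups. The wider epileptic spread was not particular to Calb1. edgeR's biological coefficient of variation estimates spread beyond counting error and is drawn towards that of other identifiers. Its median over identifiers was 8.98% (deep) and 8.82% (superficial) in controls, against 17.5% and 20.3% in epileptic animals. For Calb1 it was 15.6% and 20% in controls, against 28.9% and 28% in epileptic animals. The variance of Calb1 within a group was 38.5 to 157 times the variance that counting alone would give. This multiple grows with the read count, so that it does not compare the spread of the 2 genes. For Calb2 the SD was 9.03 to 20.2% of the mean, and the variance was 0.699 to 4.32 times that of counting, the lowest in deep and the highest in superficial epileptic libraries. edgeR's coefficient for Calb2 was 13.1% and 12.8% in deep and superficial controls, against 24.4% and 30% in epileptic animals. In deep CA1 the measured SD went the other way, at 15.2% of the mean in controls and 9.03% in epileptic animals. In superficial CA1 it was 14.05% and 20.2%. The higher deep epileptic coefficient is therefore not a wider measured spread of Calb2. Calb2 differences as small as those seen in epileptic animals 1 and 2 were not detectable at this depth.

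The animals' Calb1 levels ranked alike in the 2 sublayers, but the correlations did not pass the threshold after adjustment. Control animal 1 and epileptic animal 2 had the highest Calb1 in deep and in superficial CA1, and epileptic animal 3 the lowest in both. Over the 6 animals, 3 of each condition, deep and superficial log2 CPM of Calb1 had a Pearson r of 0.883 (exact permutation p = 0.0278, adjusted p = 0.0833 over 3 relations) and a Spearman rho of 0.886 (exact permutation p = 0.0333, adjusted p = 0.1). Without control animal 1 and epileptic animal 2, the animals farthest from the median deep level, r was 0.535. Leaving out the extremes also narrows the range, so that whether the relation rests on those animals cannot be told. For Calb2 the deep and superficial levels had an r of 0.192 (exact permutation p = 0.693, adjusted p = 0.693) and a rho of −0.0857 (exact permutation p = 0.919, adjusted p = 0.919) over the same 6 animals, and r was −0.393 without the 2 farthest. Animal means of Calb1 and Calb2 had an r of −0.471 (exact permutation p = 0.351, adjusted p = 0.527) and a rho of −0.257 (exact permutation p = 0.658, adjusted p = 0.919), with r at −0.728 without the 2 farthest in mean Calb1. Each condition holds 3 animals, too few for a value within conditions, and deep and superficial libraries of an animal share its brain and its processing. Over all identifiers tested, the deviations of an animal's deep and superficial libraries from their group means also correlated, at 0.316 to 0.770.

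**Figure D4:**
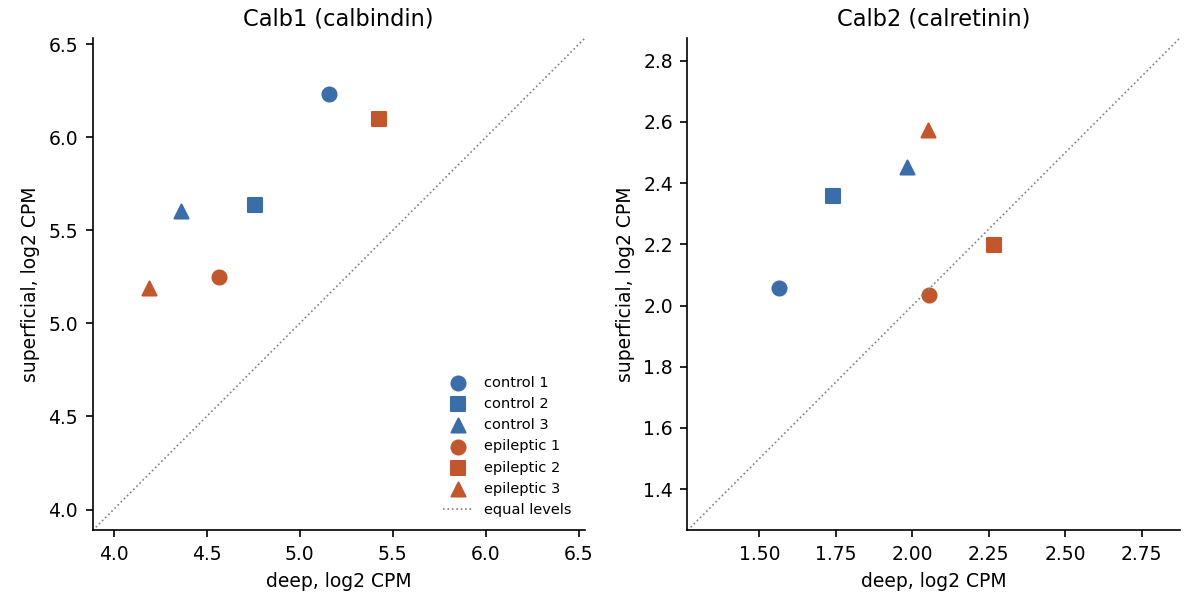
Deep (horizontal) against superficial (vertical) log2 CPM of Calb1 and Calb2, 1 point per animal, control in blue and epileptic in orange, with the dotted line at equal levels. All 6 Calb1 points lie above the line, from 0.67 to 1.24 log2 units, while the Calb2 points of epileptic animals 1 and 2 lie on or just below it.

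The count of Calb1 relative to Calb2 within a library does not depend on library scaling. Transcript length also enters each count, so that this ratio gives no relative abundance, only its change between libraries. In deep control libraries there were 12.5, 8.32 and 5.31 Calb1 reads per Calb2 read in animals 1, 2 and 3, against 18.5, 9.87 and 9.02 in superficial control libraries. In deep epileptic libraries there were 5.81, 9.09 and 4.48, against 9.50, 15.3 and 6.22 in superficial epileptic libraries. The ratio was higher in the superficial library of each animal, by 0.58 ± 0.20 on the log2 scale (SD, n = 6; higher in 6 of 6 animals, two-sided exact sign-flip permutation test, p = 0.03125, adjusted p = 0.09375). Within each animal the measured superficial excess of Calb1 was therefore the larger of the 2 genes, whatever the scaling. In control animal 2 the log2 ratio rose only from 3.06 to 3.30, while the counting error of its Calb2 difference alone was 0.24. Animal means of the log2 ratio were 2.95 ± 0.58 in epileptic and 3.30 ± 0.58 in control rats (SD, n = 3 each; exact permutation test, two-sided, p = 0.5, adjusted p = 0.6).

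Among 9395 identifiers with a mean log2 CPM of at least 3, the profile over the 12 libraries most like that of Calb1 was that of ENSRNOG00000049456 (Pearson r = 0.909), followed by ENSRNOG00000047250 (r = 0.895). Both were called higher in superficial CA1, with log2 fold changes of 0.46 and 0.25 in control and 0.33 and 0.23 in epileptic rats, each smaller than those of Calb1. The third most like Calb1 (r = 0.886) was also called higher in both conditions, with log2 fold changes of 0.56 and 0.57. The profiles most like Calb2 were ENSRNOG00000009595 (r = 0.843) and ENSRNOG00000025702 (r = 0.824), neither of which was called between sublayers in either condition. The third most like Calb2 (r = 0.796) was called higher in superficial CA1 in both, with log2 fold changes of 0.47 and 0.46. Calb1 and Calb2 themselves had an r of 0.337 over the 12 libraries. These are descriptions, since the libraries come in pairs from 6 animals. The identifiers were also chosen for likeness over these same libraries, so that a superficial excess in those most like Calb1 is partly built into the choice.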

How the data were processed

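The authors deposited raw read counts per Ensembl gene, in 1 table for each library. Per the submitters' processing notes, HTSeq 0.6.1, STAR 2.5.0c, SAMtools 0.1.19, FastQC 0.11.3 and the build Rnor_6.0 were used. No source used here says whether counting used strand, so antisense or overlapping genes may contribute reads. The 5 summary tallies (outside annotated exons, 22.3 to 44.0%) stayed out of library sizes and tests. Calb1 and Calb2 follow the identifiers given; other identifiers could not be paired with symbols, so the lists of calcium-handling genes and cell type markers were not analysed here. Members and lists were chosen with earlier results of these data known.

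The tests used edgeR 4.0.16 under R 4.3.3: filterByExpr (minimum count 10, minimum total 15), TMM, quasi-likelihood test with robust dispersions, Benjamini-Hochberg adjustment over all identifiers, threshold 0.05. Sublayers were compared in 1 model of 12 libraries with each animal as a block, and epilepsy in the 6 libraries of each sublayer. The scripts were tested on simulated data. SEs come from the fitted information matrix times the moderated dispersion. Log2 CPM used a prior count of 2. Alternatives used limma 3.58.1 and DESeq2 1.42.0. The rule for named genes took both members and the most similar profiles, at most 2 identifiers each. The relation of deep to superficial levels across animals was added after the data were seen.

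Both sublayers came from the same brains, and deviations of same-numbered deep and superficial libraries from their group means correlated at 0.316 to 0.770. Control and epileptic libraries of 1 number are different animals (0.104 to 0.244 in deep, 0.00252 to 0.212 in superficial CA1). No 2 libraries of a group were duplicates (chi-square per identifier at least 7.29). Intervals for counts cover counting error only.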

Additional observations from a re-analysis of the deposited data

How the results depend on the processing

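Calb1 kept its superficial excess under all settings run. In the fits over all identifiers it passed the threshold in each except that with no replicate block. There it was 1.06 in control (edgeR, adjusted p = 0.4801) and 0.76 in epileptic rats (edgeR, adjusted p = 0.6931). The exact sign-flip permutation test could pass in no setting, so that its adjusted p decides nothing at the threshold. Its smallest p is 0.03125, and the 6 exact tests adjusted together include those of 3 against 3 animals, which cannot go below 0.1. The adjusted p was 0.09375 with TMM, 0.0625 on raw library totals, the lowest these tests allow, and 0.1875 without any 1 animal. Calb2 in controls passed with no low-count filter (0.55), with its own 6 libraries alone (0.53), and without epileptic animal 1 or 3 (0.54 and 0.53), but not without any 1 of the other animals; over all such fits it was 0.49 to 0.57. Calb2 in epileptic rats gave −0.050 to 0.26 without 1 animal. No setting called either gene between conditions, and near-zero values changed sign: Calb1 in deep CA1 was −0.033 with limma-voom, −0.026 with the replicate block, −0.061 with the outside-exon share as covariate and −0.41 to 0.26 without 1 animal. Calb2 in superficial CA1 was −0.018, −0.0021 and −0.31 in the same order of settings, −0.012 with all 12 libraries in 1 model and −0.17 to 0.13 without 1 animal. With the same covariate Calb1 in superficial CA1 was −0.47, against −0.26 in the main fit, and Calb2 in deep CA1 was 0.33, against 0.37. Calb1 over animal means was −0.49 to 0.043 without 1 animal. The replicate block changed no other call of either gene.

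Counts of identifiers called moved more. In controls 1248 became 1910 with no filter, 815 with DESeq2, 689 with limma-voom, 5 with no replicate block, 2375 with its own 6 libraries and 416 to 2071 without 1 animal. In epileptic rats 1484 became 811, 838, 5 and 727 with DESeq2, limma-voom, no replicate block and its own libraries, and 536 to 2217 without 1 animal. For the difference of differences, 0 became 178 with no filter, 2 with DESeq2 and 0 to 84 without 1 animal. For deep epilepsy, 0 became 47 (limma-voom), 8 (RLE), 103 (no filter), 376 (DESeq2), 239 (replicate block), 8 (without identifiers over 1%), 99 (covariate), 48 (all 12 libraries) and 0 to 552 without 1 animal. For superficial epilepsy, 2 became 291 (limma-voom), 130 (no filter), 885 (DESeq2), 25 (replicate block), 5 (covariate), 279 (all 12 libraries) and 0 to 1443 without 1 animal. The cause was not tested. A fit of 6 libraries alone cannot give the difference of differences.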
